A study of Mus musculus with 6 samples.

Results

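Matrix metalloproteinases (MMPs), ADAMs, ADAMTS proteases and their inhibitors set how fast a tissue's extracellular matrix is cut and which membrane proteins are released from cell surfaces. MMPs are zinc enzymes that are secreted or held at the membrane and cut collagens, proteoglycans and other proteases. ADAMs are transmembrane proteins, many of which shed growth factors, cytokines and receptors, and ADAMTS enzymes are secreted relatives that trim procollagens and cut large proteoglycans. The tissue inhibitors of metalloproteinases (TIMPs) bind the active sites of these enzymes, and in bone MMP13 and MMP14 are known for collagen turnover during growth and remodelling. The genes described here were found by their symbols (Mmp, Adam, Adamts and Adamtsl followed by a number, and Timp1 to Timp4) in the deposited expression table, which lists 77 of them among 18853 genes. They comprise 23 Mmp, 26 Adam, 19 Adamts, 5 Adamtsl and 4 Timp genes.

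RNA sequencing was done on cultured mouse bone marrow stromal cells (BMSCs) from mice of 2 genotypes, wild type (libraries WT10, WT11 and WT12) and HRP2-KO (libraries KO6, KO7 and KO44). HRP2, or HDGFR2, is a chromatin reader protein whose gene the table lists as Hdgfl2, and the series title links it to osteogenic differentiation and to histone crotonylation and acetylation. All cultures grew in αMEM with fetal bovine serum, and the sources used here give no strain, sex, age, knocked-out exon or induction of differentiation. They also do not say whether the replicates are separate animals, so a p-value here reflects only how these 6 samples spread, which may be technical, and a batch effect cannot be told apart from genotype.

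Library totals were 20184473 to 20680779 estimated counts. Hdgfl2 stood at 51.4 to 58.2 CPM (counts scaled to a common library total after TMM normalization) in WT and at 6.59, 5.56 and 11.8 CPM in KO6, KO7 and KO44 (log2 fold change -2.79, edgeR adjusted p = 0.0711). All 10 listed stromal markers were detected in every library, 5 with a positive and 5 with a negative log2 fold change (median -0.10). Col1a1 and Col1a2 were higher in every HRP2-KO library than in every WT library, and the other 8 overlapped. The sum of those 8 was 2223, 2813 and 3422 CPM in WT10, WT11 and WT12, against 1264, 2913 and 858 CPM in KO6, KO7 and KO44, so KO7 lay inside the WT range and the other 2 below it. All 14 listed macrophage markers were also detected, at a summed 26237, 10931 and 10207 CPM in WT10, WT11 and WT12, against 1282, 14717 and 2608 CPM in KO6, KO7 and KO44. On this sum, of which Lyz2 was the largest part in every library, KO7 was again inside the WT range and the other 2 HRP2-KO libraries below it. The single markers were not uniform in KO7. Adgre1, Itgam and Fcgr1 lay above the WT range there, Mrc1 below it and the rest inside. In KO6 and KO44 each marker lay below the WT range except Fcgr1, which was inside it in KO44. In bulk RNA, fewer cells of a type and less RNA per cell cannot be told apart. The 8 osteoclast markers summed to 78.8 to 129 CPM across all libraries, mostly from Ctsk (25.5 to 29.3 CPM across WT and 45.7 to 56.9 CPM across HRP2-KO) and Nfatc1 (24.5 to 80.5 CPM). Atp6v0d2 was at 5.18 to 15.6 CPM across WT and 0.446 to 3.26 CPM across HRP2-KO, while Calcr, Dcstamp and Ocstamp stayed at or below 0.107 CPM in every library. KO44 held lower values for long transcripts. With the tested genes split into 5 groups by length, its mean deviation from the average library was -0.56 (log2) in the longest group and 0.36 in the shortest, while the other 5 libraries stayed between -0.14 and 0.20 in every group. Of the tested members 34 of 54 (63.0%) belong to the longest 2 groups.

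Of the 77 genes, 54 had enough counts to be tested. No member passed the threshold (adjusted p below 0.05 over all 13696 tested genes in edgeR's quasi-likelihood test), and 0.00730% of all genes did. At an unadjusted p below 0.05 there were 7 members higher in HRP2-KO (13.0%, against 12.7% of all genes) and 7 lower (13.0%, against 9.10% of all genes). Over both directions 21.8% of all genes passed that limit. The members' median log2 fold change was -0.05, and that of all tested genes was 0.02. In 8 members all 3 HRP2-KO values lay above all 3 WT values (14.8%, against 17.0% of all genes), and in 5 they all lay below (9.26%, against 14.0% of all genes). Over both directions 31.0% of all genes did not overlap. The members' 4 shares lay within 5 percentage points of those of all genes. On the deposited TPM values (abundances scaled to transcript length and a common total), where the median log2 fold change of all genes was -0.21 to -0.24 with the pseudocount used, the same counts were 4 above and 12 below, against 7.41% and 23.7% of all genes. With each library's trend with transcript length removed they were 8 above and 6 below, against 18.0% and 15.5% of all genes. The split between higher and lower members thus depends on the scaling.

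**Figure D1:**
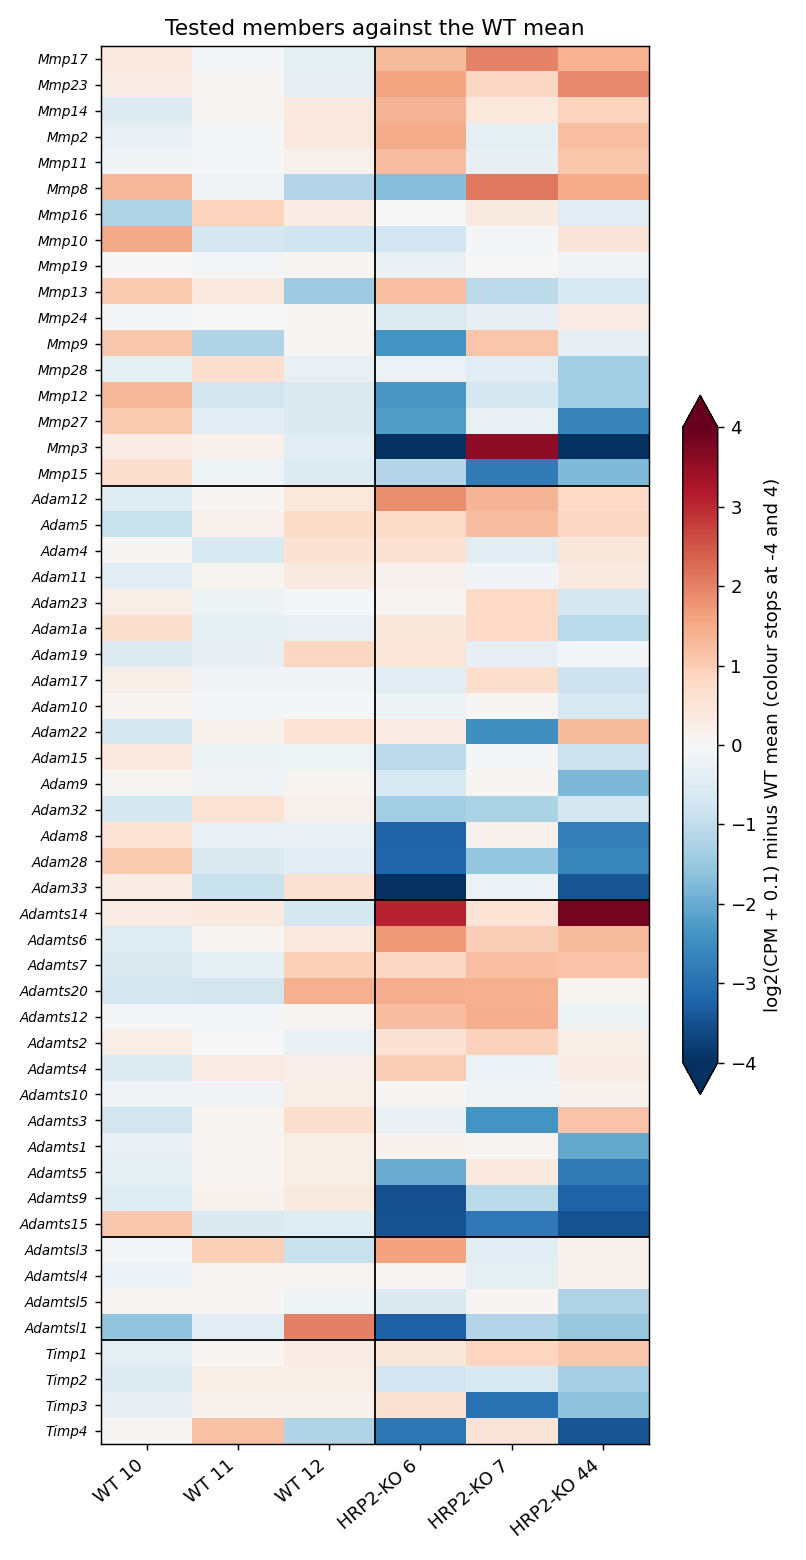
Colour gives log2(CPM + 0.1) of each of the 54 tested members (rows, sorted within family) minus the mean of the 3 WT libraries, for each library (columns). HRP2-KO 7 differs from HRP2-KO 6 and 44 in many rows, for example Mmp3, Adam8, Adam33 and Adamts5.

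The 3 HRP2-KO libraries differed in where the members lay against the 3 WT values. In KO6, 18 members were above, 13 within and 23 below the WT range (all genes 38.4%, 22.8% and 38.8%). In KO7, 19 were above, 21 within and 14 below (all genes 33.0%, 37.2% and 29.8%). In KO44, 16 were above, 14 within and 24 below (all genes 39.1%, 17.2% and 43.7%). KO6 and KO44 were both below WT in 18 members (33.3%, against 31.4% of all genes) and both above it in 10 (18.5%, against 29.8%).

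Leaving out KO7 changed the count of calls most. It also lowered edgeR's common biological coefficient of variation, a measure of spread between replicates, from 0.432 to 0.319. Adjusted p-values given without KO7 rest on the remaining HRP2-KO libraries, so they are no separate evidence of a genotype difference. With KO7 left out edgeR called 18 of 54 members (33.3%, against 24.1% of all genes), 7 higher (13.0%, against 12.1% of all 13983 genes) and 11 lower (20.4%, against 12%). The higher ones were Adam12, Adamts14, Adamts6, Mmp11, Mmp17, Mmp2 and Mmp23. The lower ones were Adam15, Adam28, Adam33, Adam8, Adamts15, Adamts5, Adamts9, Mmp15, Mmp27, Mmp3 and Timp4. DESeq2 on all 6 libraries called 8 members (11.5% of all genes), 5 higher (Adam12, Adamts14, Adamts6, Mmp17 and Mmp23, against 6.56% of all genes) and 3 lower (Adamts15, Adamts9 and Mmp15, against 4.97%), and limma voom called none (0.270% of all genes, 0.0511% higher and 0.219% lower). The 8 genes were also among the 18. With KO6 or KO44 left out edgeR called no member (0.00716% and 0% of all genes).

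**Figure D2:**
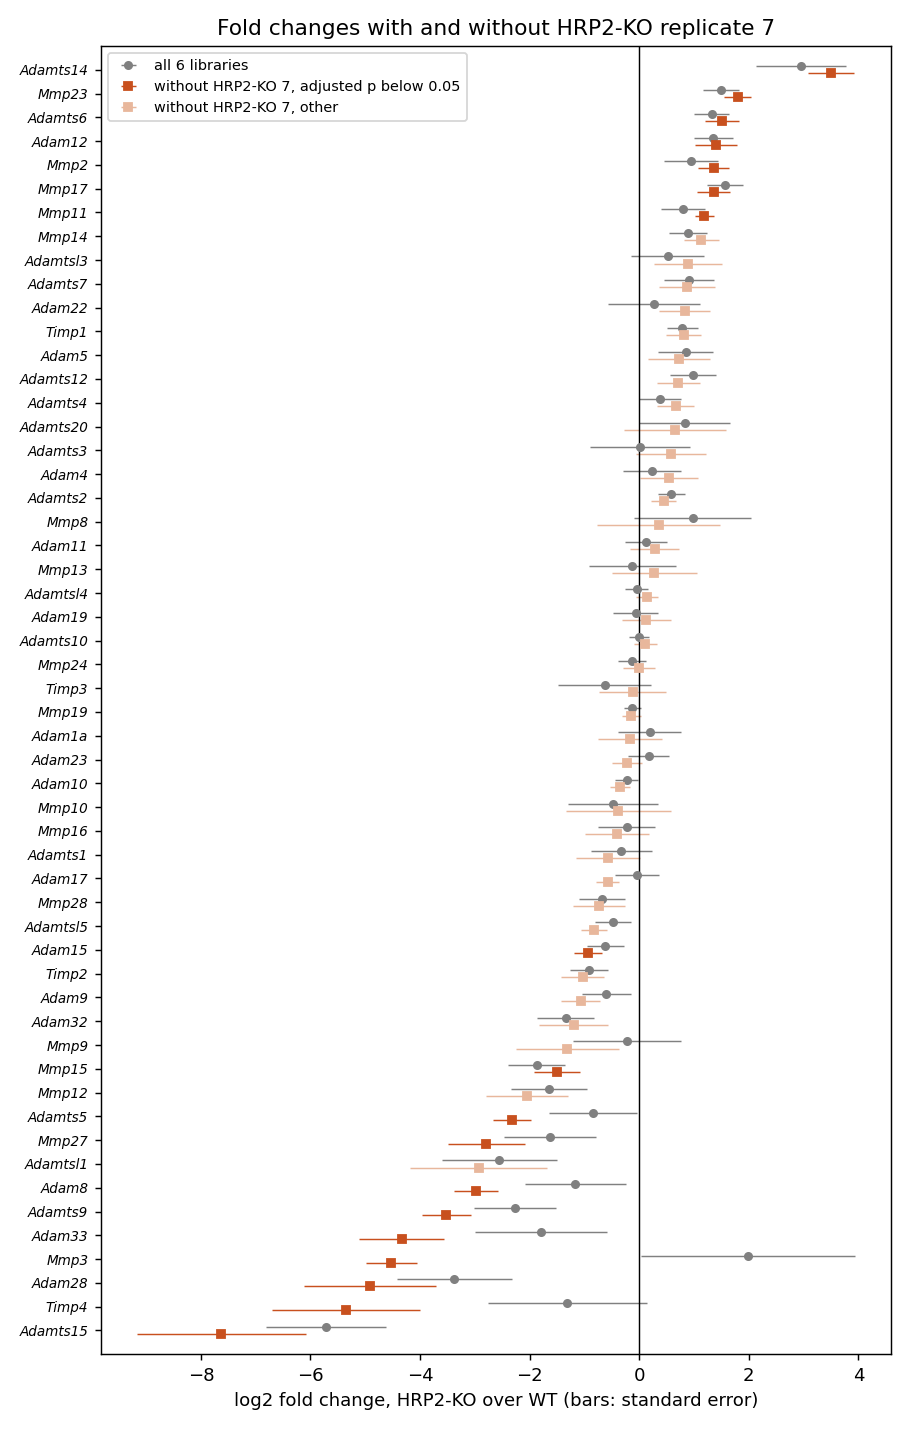
Points are the log2 fold changes (HRP2-KO over WT) of the 54 tested members and bars are standard errors, for all 6 libraries (grey circles) and with KO7 left out (squares, dark where the adjusted p was below 0.05). Mmp3 changes sign, from 1.98 to -4.52, and the value of Adamts15 depends on the small count the model adds.

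The 3 most abundant members were TIMPs. By mean TPM over all libraries, Timp2 (1707), Timp1 (1571) and Timp3 (643) held the first 3 places, followed by Adam8 (496), Mmp2 (409) and Mmp14 (235). TIMP1 inhibits most soluble MMPs. Its gene (Entrez 21857, GRCm38.p6 chromosome X, 20870166 to 20874737) was at 371, 507 and 596 CPM in WT10, WT11 and WT12, against 661, 873 and 1014 CPM in KO6, KO7 and KO44. Every HRP2-KO value lay above every WT value, and the means were 491 ± 113 and 849 ± 178 CPM (SD, n = 3 each). That is a log2 fold change of 0.79 (standard error 0.28, edgeR adjusted p = 0.192). Timp1 is 1 of 2 tested members in the shortest length group, and with each library's length trend removed its groups overlapped and the log2 fold change was 0.46. The gene lies inside Syn1, without exon overlap.

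TIMP2 inhibits MMPs and also serves, bound to MMP14, as the receptor for the MMP2 precursor. Timp2 (Entrez 21858, chromosome 11, 118301061 to 118355411) had a fold change of the opposite sign to Timp1, with 2573, 4377 and 4427 CPM in WT10, WT11 and WT12, against 2158, 2391 and 1463 CPM in KO6, KO7 and KO44. The groups did not overlap, though WT10 was only slightly above the highest HRP2-KO library. The means were 3792 ± 1056 and 2004 ± 483 CPM (SD, n = 3 each), with a log2 fold change of -0.92, standard error 0.34 (edgeR adjusted p = 0.202). As a share of the summed Timp TPM, Timp2 made up 49.4% to 54.8% in the WT libraries and 31.1%, 38.1% and 23.5% in KO6, KO7 and KO44. Timp1 made up 27.1% to 30.5% in WT and 40.6%, 59.3% and 69.7% in the same HRP2-KO libraries. The leading Timp transcript in TPM was Timp2 in every WT library and Timp1 in every HRP2-KO library. These shares keep the length trend of KO44. That library deviated by 0.36 (log2) in the shortest length group, which holds Timp1, and by -0.34 in group 4 of 5, which holds Timp2. With the length trend removed the log2 fold change of Timp2 was -0.87. How far transcript length enters the shares was not tested.

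TIMP3 binds to the extracellular matrix and also inhibits ADAM17 and several ADAMTS enzymes. Timp3 (Entrez 21859, chromosome 10, 86300412 to 86349505) was at 1354, 1874 and 1888 CPM in WT10, WT11 and WT12, against 2548, 212 and 551 CPM in KO6, KO7 and KO44. The HRP2-KO libraries thus lay on both sides of the WT range, with 1 above it and 2 below. The log2 fold change of -0.63 had a standard error of 0.85 (edgeR adjusted p = 0.665), and became -2.12 with KO6 left out. Its exons overlap those of Syn3 on the other strand over 21.3% of their length, and Syn3 was at 0.694 to 5.86 CPM. Timp4 was low, at 1.04, 2.40 and 0.377 CPM in WT10, WT11 and WT12, against 0.0488, 1.5 and 0 CPM in KO6, KO7 and KO44 (log2 fold change -1.31, standard error 1.44, edgeR adjusted p = 0.594). That value was -0.46 without WT11 and -5.35 without KO7 (edgeR adjusted p = 0.0382).

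**Figure D3:**
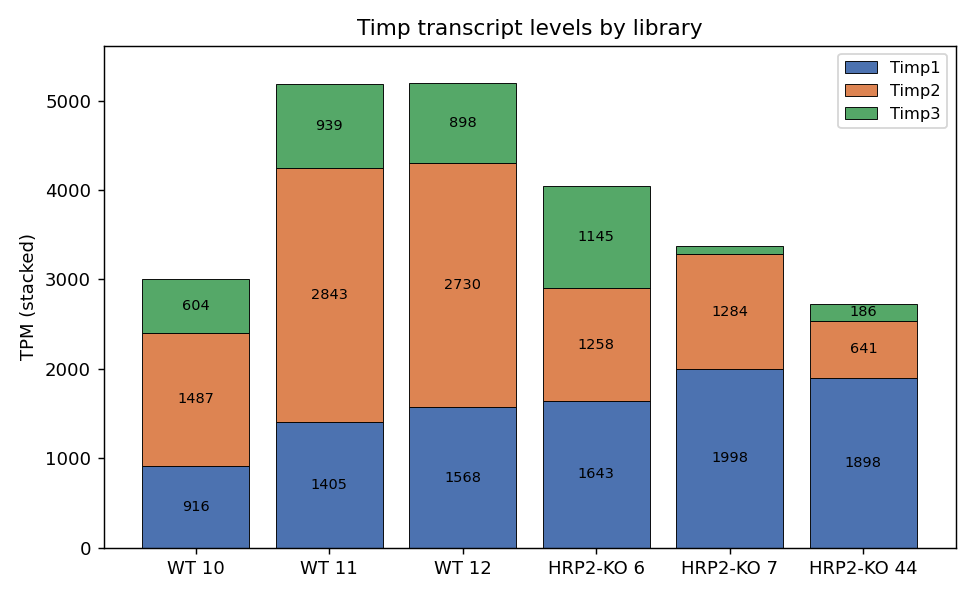
Stacked bars give the TPM of Timp1, Timp2 and Timp3 in each library, with the value of each segment above 150 TPM printed in it. Timp2 is the largest segment in the WT libraries and Timp1 in the HRP2-KO libraries, and Timp3 is small in HRP2-KO 7 and 44.

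Of the 5 tested membrane-anchored MMPs, 2 were higher and 1 was lower in every HRP2-KO library than in every WT library (17.0% and 14.0% of all genes). MMP14 (MT1-MMP) cuts fibrillar collagen at the cell surface and activates MMP2. Mmp14 (Entrez 17387, chromosome 14, 54431598 to 54442456) was at 211, 323 and 394 CPM in WT10, WT11 and WT12, against 768, 403 and 555 CPM in KO6, KO7 and KO44. The lowest HRP2-KO value, in KO7, was close to the highest WT value, and the groups overlapped in TPM and with the length trend removed. The log2 fold change was 0.90, standard error 0.34 (edgeR adjusted p = 0.208). MMP17 (MT4-MMP) is tied to the membrane by a lipid anchor. Mmp17 (Entrez 23948, chromosome 5, 129584151 to 129611099) was at 7.20, 5.31 and 4.29 CPM in WT10, WT11 and WT12, against 13.3, 21.9 and 14.5 CPM in KO6, KO7 and KO44. Its means of 5.60 ± 1.48 and 16.6 ± 4.68 CPM (SD, n = 3 each) differed by a log2 fold change of 1.56, standard error 0.32 (edgeR adjusted p = 0.105), the smallest p among the higher members.

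MMP15 (MT2-MMP) is a transmembrane relative of MMP14. Mmp15 (Entrez 17388, chromosome 8, 95352296 to 95374293) was at 31.4, 17.6 and 13.7 CPM in WT10, WT11 and WT12, against 8.64, 2.73 and 5.75 CPM in KO6, KO7 and KO44. The 3 HRP2-KO values all lay below the WT values, with a log2 fold change of -1.87, standard error 0.51 (edgeR adjusted p = 0.137). Mmp14 and Mmp15 therefore had fold changes of opposite sign. Like Mmp14 and Mmp17, the stromal markers Col1a1 and Col1a2 were higher in every HRP2-KO library than in every WT library, unlike the other 8 stromal markers. The summed smooth muscle markers, mostly Acta2, were higher as well (1081 to 1588 CPM across WT and 4550 to 6426 CPM across HRP2-KO). Acta2, Tagln and Cnn1 each did not overlap. Myh11 overlapped, at 4.79, 3.88 and 6.12 CPM in WT10, WT11 and WT12, against 3.27, 15.5 and 2.18 CPM in KO6, KO7 and KO44. The part of these cell type markers was not tested. Mmp16 and Mmp24 overlapped between the groups, at 16.9 ± 10.2 against 14.4 ± 3.87 CPM and 22.6 ± 1.42 against 20.6 ± 6.46 CPM in WT and HRP2-KO (SD, n = 3 each).

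MMP2 and MMP9 are the gelatinases, which cut denatured collagen and basement membrane. Mmp2 (Entrez 17390, chromosome 8, 92827290 to 92853421) was at 341, 400 and 548 CPM in WT10, WT11 and WT12, against 1172, 325 and 974 CPM in KO6, KO7 and KO44. KO7 lay below the WT range and the other 2 HRP2-KO libraries above it. The log2 fold change was 0.94, standard error 0.49 (edgeR adjusted p = 0.30), and 1.36 with an adjusted p of 0.0257 when KO7 was left out. Mmp9, which is typical of myeloid cells and osteoclasts, was at 0.785 to 4.24 CPM across WT and 0.293 to 4.28 CPM across HRP2-KO.

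Most of the secreted collagenase and stromelysin genes of the mouse lie side by side on chromosome 9, where 10 Mmp genes fill 427.1 kb (7272514 to 7699585, GRCm38.p6). In chromosome order they are Mmp13, Mmp12, Mmp1b, Mmp3, Mmp1a, Mmp10, Mmp8, Mmp27, Mmp20 and Mmp7, of which 6 were tested. Many of these genes are known to respond to the transcription factor AP-1 through a site close to their start. The RefSeq promoters of GRCm38.p6 (250 bases before to 50 after each annotated start, available for 48 of the 77 genes) were searched for the AP-1 site TGANTCA on both strands. It was found in 8 of the 10 cluster genes, in 2 of the 38 other members and in 8.97% of all 27025 genes. The TATA element TATAAA, searched on the gene's strand, was also in 8 of the 10, against 3 of the 38 and 9.77% of all genes. The GC box GGGCGG, searched on both strands, was in none of the 10, in 27 of the 38 other members and in 38.2% of all genes. The RUNX site TGTGGT, searched on both strands, was in 4 of the 10, in 7 of the 38 and in 18.9% of all genes. A match describes the letters and does not show that a factor binds.

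The 100 bases before the annotated start of the 6 tested cluster genes are printed to show where such matches lie, 5′ to 3′ on the plus strand, with AP-1 and TATA matches in capitals. For Mmp12, which has 2 annotated starts, the stretch is from the start with an AP-1 match. The 100 bases before its other start hold neither match.
Mmp13, chr9:7272414-7272513: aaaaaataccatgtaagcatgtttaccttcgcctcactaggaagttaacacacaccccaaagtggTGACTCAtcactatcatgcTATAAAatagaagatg
Mmp12, chr9:7347274-7347373: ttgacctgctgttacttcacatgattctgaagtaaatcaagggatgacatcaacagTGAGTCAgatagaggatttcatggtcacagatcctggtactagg
Mmp3, chr9:7445722-7445821: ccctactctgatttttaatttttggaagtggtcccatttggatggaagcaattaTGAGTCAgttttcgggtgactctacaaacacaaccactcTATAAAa
Mmp10, chr9:7502242-7502341: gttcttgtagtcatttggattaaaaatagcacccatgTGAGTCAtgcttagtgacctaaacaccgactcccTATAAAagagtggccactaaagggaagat
Mmp8, chr9:7558329-7558428: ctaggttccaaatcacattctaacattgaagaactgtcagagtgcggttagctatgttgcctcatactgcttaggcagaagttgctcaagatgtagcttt
Mmp27, chr9:7571296-7571395: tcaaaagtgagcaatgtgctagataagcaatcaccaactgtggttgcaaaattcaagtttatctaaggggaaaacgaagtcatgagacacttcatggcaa
Mmp3, Mmp10 and Mmp12 hold the letters TGAGTCA, and Mmp13 has TGACTCA. The TATA match of Mmp12 lies after its start and is not in the stretch, and Mmp8 and Mmp27 hold neither element.

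The tested genes with an AP-1 match in the printed stretch did not share a pattern across the libraries. Mmp3, stromelysin 1, which cuts proteoglycans and activates procollagenases, ranged from 1.14 to 533 CPM over the libraries. Mmp3 (Entrez 17392, chromosome 9, 7445822 to 7455975) was at 54.1, 49.4 and 32.1 CPM in WT10, WT11 and WT12, against 2.68, 533 and 1.14 CPM in KO6, KO7 and KO44. The HRP2-KO libraries lay on both sides of WT, 2 far below and 1 far above. The log2 fold change of 1.98 had a standard error of 1.95 (edgeR adjusted p = 0.549), and with KO7 left out it was -4.52 (adjusted p = 0.0148). Mmp10, stromelysin 2, whose sequence is close to that of Mmp3, was at 2.76, 0.508 and 0.471 CPM in WT10, WT11 and WT12, against 0.488, 0.856 and 1.34 CPM in KO6, KO7 and KO44, and lay in the WT range in every HRP2-KO library.

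Mmp13, collagenase 3, the main secreted collagenase of mouse bone and cartilage, was at 394, 247 and 68.8 CPM in WT10, WT11 and WT12, against 435, 91.8 and 123 CPM in KO6, KO7 and KO44. The groups overlapped over nearly their whole ranges, and the log2 fold change was -0.13, standard error 0.80 (edgeR adjusted p = 0.933). In TPM, Mmp13 supplied 98.8% of the summed collagenase transcripts. Mmp8, the neutrophil collagenase, was at 3.11, 1.06 and 0.471 CPM in WT10, WT11 and WT12, against 0.293, 5.40 and 3.47 CPM in KO6, KO7 and KO44. Its log2 fold change of 0.98 (edgeR adjusted p = 0.590) was 1.98 without WT10 and 0.36 without KO7.

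MMP12 is the macrophage elastase. Mmp12 was at 173, 40.7 and 45.3 CPM in WT10, WT11 and WT12, against 13.5, 42.3 and 26.6 CPM in KO6, KO7 and KO44, with a log2 fold change of -1.65, standard error 0.69 (edgeR adjusted p = 0.234). WT10, the library with the highest macrophage marker sum, was also highest in Mmp12, and KO6, with the lowest sum, was lowest. Mmp27, also in the cluster, was at 7.05, 2.45 and 2.21 CPM in the same WT libraries and at 0.634, 2.73 and 0.446 CPM in KO6, KO7 and KO44. Without WT10 the log2 fold changes of Mmp12 and Mmp27 were -0.65 and -0.88, and without KO7 that of Mmp27 was -2.79 (edgeR adjusted p = 0.0385). The part of the macrophage level in these values was not tested.

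**Figure D4:**
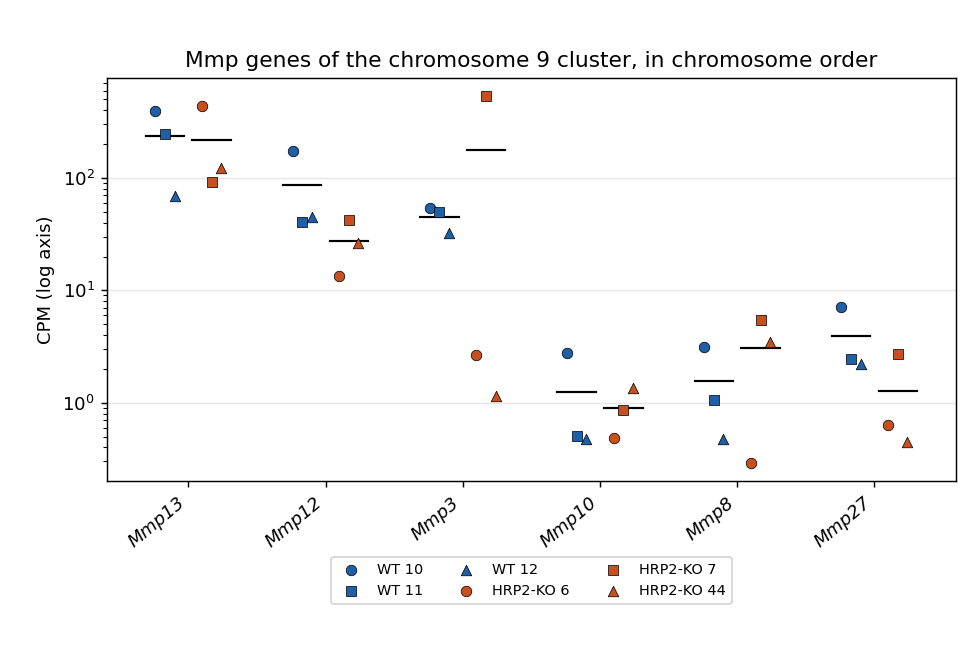
Points give the CPM (log axis) of the 6 tested Mmp genes of chromosome 9 in each library, WT in blue and HRP2-KO in orange, and lines are group means. Mmp3 is at 533 CPM in HRP2-KO 7 and at 2.68 and 1.14 CPM in HRP2-KO 6 and 44, while Mmp13 overlaps between the genotypes.

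Elsewhere in the genome, Mmp23 encodes a membrane-tethered MMP that is released by proprotein cleavage. Mmp23 (Entrez 26561, chromosome 4, 155650655 to 155654539) was at 38.3, 32.7 and 24.9 CPM in WT10, WT11 and WT12, against 95.1, 55.5 and 120 CPM in KO6, KO7 and KO44. All HRP2-KO values lay above the WT values, in CPM, in TPM and with the length trend removed. The means were 32.0 ± 6.74 and 90.1 ± 32.4 CPM (SD, n = 3 each), with a log2 fold change of 1.49, standard error 0.33 (edgeR adjusted p = 0.109, and 0.00264 in DESeq2). Mmp11, stromelysin 3, was at 18.1 to 21.7 CPM across WT and at 45.1, 15.3 and 41.0 CPM in KO6, KO7 and KO44. Mmp19, which shares 22.3% of its exon bases with Tmem198b on the other strand, was at 81.4 ± 4.62 CPM in WT against 74.4 ± 6.69 CPM in knockouts (SD, n = 3 each).

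Of the 9 ADAMs that are broadly known as active proteases, 8 had a negative log2 fold change, with a median of -0.60, and 1 was above 0. With the length trend removed Adam17 and Adam19 also moved above 0, to 0.04 and 0.14. The 1 above 0 was Adam12, meltrin alpha, which is active in muscle, bone and fat precursors and sheds heparin-binding EGF. Adam12 (Entrez 11489, chromosome 7, 133883199 to 134225097) was at 25.6, 37.4 and 48.3 CPM in WT10, WT11 and WT12, against 129, 93.2 and 62.3 CPM in KO6, KO7 and KO44. The groups did not overlap in CPM and did in TPM, and the log2 fold change was 1.36, standard error 0.35 (edgeR adjusted p = 0.125, and 0.00964 in DESeq2).

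Adam8, a cell-surface protease of myeloid cells, was the most abundant ADAM, with 47.2% of the summed ADAM TPM. Adam8 (Entrez 11501, chromosome 7, 139978932 to 139995207) was at 1433, 800 and 804 CPM in WT10, WT11 and WT12, against 103, 1107 and 145 CPM in KO6, KO7 and KO44. KO7 lay inside the WT range and the other 2 HRP2-KO libraries far below it, as in the macrophage marker sums. The log2 fold change was -1.16, standard error 0.92 (edgeR adjusted p = 0.464), and -2.98 with KO7 left out (adjusted p = 0.0158).

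ADAM10 and ADAM17 are the main sheddases, which release Notch fragments, TNF and EGF-family ligands. Adam10 was at 150, 138 and 137 CPM in WT10, WT11 and WT12, against 124, 146 and 91.9 CPM in KO6, KO7 and KO44, and Adam17 was at 79.9 ± 12 and 77.7 ± 45 CPM in WT and HRP2-KO (SD, n = 3 each). Neither passed the test (edgeR adjusted p = 0.526 and 0.959). Adam9 and Adam15, also widely expressed, were at 410 ± 35.0 against 271 ± 156 CPM and 363 ± 88.8 against 237 ± 91.8 CPM. For all 4 genes KO6 and KO44 lay below the WT range in CPM and KO7 lay in it or above it. In TPM, KO7 also lay below the WT range for Adam9, Adam10 and Adam15, and above it for Adam17.

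That layout, with KO6 and KO44 below the WT range and KO7 not below, was seen in 13 of the 54 members (24.1%, against 17.4% of all genes), with KO7 inside the range in 10 of them (all genes 12.4%) and above it in Adam17, Adamts5 and Mmp3 (all genes 4.92%). These were, in CPM, Adam10, Adam15, Adam17, Adam33, Adam8, Adam9, Adamts5, Adamtsl5, Mmp12, Mmp19, Mmp27, Mmp3 and Timp4. The layout depends on the scaling. In TPM, Adam10, Adam15, Adam9, Mmp12 and Mmp19 were below WT in every HRP2-KO library, KO7 included (23.7% of all genes). The reverse, with both above and KO7 not above, was seen in Mmp11 and Mmp2 only, 2 of the 54 (3.70%, against 12.9%). Adam33, a mesenchymal ADAM, gave a clear case of the first layout, at 13.9, 6.09 and 17.5 CPM in WT10, WT11 and WT12 and 0.244, 9.68 and 0.942 CPM in KO6, KO7 and KO44. The macrophage marker sum was placed in the same way in these libraries, and so was the sum of the 8 stromal markers other than the collagens. Cxcl12, the largest part of that stromal sum in each WT library, was at 1186 to 1311 CPM in WT and at 334, 1460 and 238 CPM in KO6, KO7 and KO44. Thy1 was at 187 to 691 CPM in WT and at 3.51, 395 and 21.3 CPM in the same HRP2-KO libraries, and Pdgfra was placed likewise. The other markers of that sum, Pdgfrb, Eng, Nt5e, Lepr and Prrx1, did not have this layout. Prrx1 lay inside the WT range (278 to 555 CPM) in every HRP2-KO library. The part of either cell type was not tested.

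ADAMs 11, 22 and 23 lack the zinc-binding site and act as adhesion and receptor proteins, above all in neurons. All 3 were expressed and overlapped between the groups, with Adam23 the highest at 64.7 ± 11 CPM in WT against 72.9 ± 35.9 CPM in knockouts (SD, n = 3 each). Of the remaining 14 ADAMs, most of which are known from the testis, 4 could be tested. Adam5, best known from sperm, was at 0.691, 1.57 and 2.35 CPM in WT10, WT11 and WT12, against 2.44, 3.37 and 2.53 CPM in KO6, KO7 and KO44, groups that just do not overlap (edgeR adjusted p = 0.343). In TPM the Adam5 groups overlapped. Adam1a shares 63.7% of its exon bases with Gm42878 and 24.0% with Mapkapk5, both on the same strand, so its counts are uncertain. Adam28, a lymphocyte-associated ADAM, belongs to the active ADAMs described above and not to these remaining ones. It was at 1.78, 0.508 and 0.565 CPM in WT10, WT11 and WT12, against 0, 0.214 and 0.0496 CPM in KO6, KO7 and KO44 (edgeR adjusted p = 0.164), so every HRP2-KO value lay below every WT value.

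The ADAMTS procollagen N-proteinases remove the amino-terminal propeptides of fibrillar procollagens. Adamts14 (Entrez 237360, chromosome 10, 61197112 to 61273419) was at 4.09, 4.43 and 2.02 CPM in WT10, WT11 and WT12, against 28.7, 4.92 and 48.4 CPM in KO6, KO7 and KO44. KO6 and KO44 stood well above WT, and KO7 only just above it. In TPM the groups overlapped, with KO7 at 1.84 and WT11 at 2.02, and with the length trend removed they did not. The means were 3.52 ± 1.30 and 27.3 ± 21.8 CPM (SD, n = 3 each), with a log2 fold change of 2.96, standard error 0.82 (edgeR adjusted p = 0.138, and 0.0029 in DESeq2), and 2.27 without KO44. Adamts2, which supplied 91.2% of the TPM of this group, was at 212, 171 and 145 CPM in WT10, WT11 and WT12, against 259, 329 and 207 CPM in KO6, KO7 and KO44 (log2 fold change 0.59, standard error 0.25, edgeR adjusted p = 0.239). Its groups overlapped, with KO44 below WT10, and they did not with the length trend removed. Their substrate chain Col1a1 was at 1584 to 3288 CPM across WT and 11936 to 15733 CPM across HRP2-KO. Bmp1, the matching C-proteinase, named here after its values were seen, was at 179 to 310 CPM across WT and 313 to 475 CPM across HRP2-KO.

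The hyalectanases cut versican and aggrecan, and of the 6 tested 4 had a negative log2 fold change. Adamts9 (Entrez 101401, chromosome 6, 92772699 to 92944450) was at 5.82, 9.10 and 10.5 CPM in WT10, WT11 and WT12, against 0.634, 3.85 and 0.793 CPM in KO6, KO7 and KO44. The HRP2-KO values all lay below WT, with KO7 nearest to it, and the log2 fold change was -2.27, standard error 0.75 (edgeR adjusted p = 0.177, and 0.0252 in DESeq2), and -3.52 without KO7. Adamts15 (Entrez 235130, chromosome 9, 30899155 to 30922452) was at 2.27, 0.646 and 0.706 CPM in WT10, WT11 and WT12, and the 3 HRP2-KO libraries together held 1 count, in KO7, against 75 in WT. That is a ratio of 70.5 with a 95% exact interval of 12.3 to 2821, which covers counting error only (edgeR adjusted p = 0.0982, the smallest of all members).

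Adamts1 and Adamts5 were the abundant hyalectanases. Adamts5, a main aggrecanase of mouse cartilage, was at 283, 384 and 439 CPM in WT10, WT11 and WT12, against 91.5, 473 and 52.7 CPM in KO6, KO7 and KO44 (log2 fold change -0.84, standard error 0.80, edgeR adjusted p = 0.537). With KO7 left out it was -2.32 (adjusted p = 0.017). Adamts1 was at 279, 367 and 405 CPM in WT10, WT11 and WT12, against 381, 373 and 84.2 CPM in KO6, KO7 and KO44, so KO44 alone stood apart. Both genes belong to the longest of the 5 length groups, in which KO44 deviated by -0.56 (log2) from the average library. With the length trend removed the log2 fold change of Adamts1 was -0.26, from -0.32, and that of Adamts5 was -0.80. The part of transcript length in the KO44 values was not tested. Their substrate Vcan was at 291 to 589 CPM across WT and 328 to 866 CPM across HRP2-KO, and Acan was at most at 0.321 CPM.

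Adamts6, which acts on fibrillin-rich matrix, was at 7.40, 10.8 and 13.7 CPM in WT10, WT11 and WT12, against 34.3, 20.6 and 24.7 CPM in KO6, KO7 and KO44. All HRP2-KO values lay above WT in CPM, in TPM and with the length trend removed, and the log2 fold change was 1.32, standard error 0.31 (edgeR adjusted p = 0.114, and 0.0057 in DESeq2). Its paralog Adamts10 did not follow, at 43.6 ± 7.61 CPM in WT against 43.6 ± 4.04 CPM in knockouts (SD, n = 3 each). The cartilage oligomeric matrix protein (COMP) proteases Adamts7 and Adamts12 had log2 fold changes of 0.91 and 0.99 (edgeR adjusted p = 0.282 and 0.236). Adamts7 was at 4.49, 5.22 and 13.1 CPM in WT10, WT11 and WT12, against 12.1, 15.8 and 14.9 CPM in KO6, KO7 and KO44, and its log2 fold change was 1.56 without WT12.

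**Figure D5:**
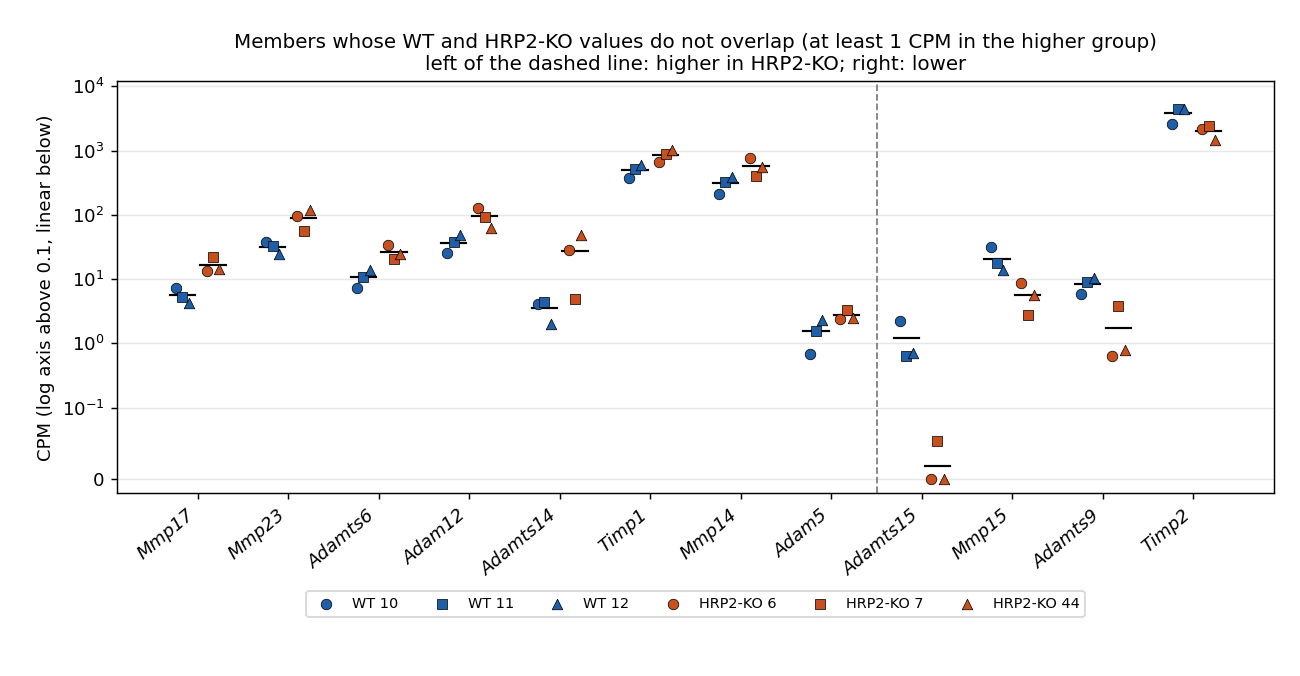
Points give the CPM per library of the 12 members whose groups do not overlap and whose higher group has a mean of at least 1 CPM (log axis above 0.1), WT in blue and HRP2-KO in orange, and lines are group means. Of the HRP2-KO libraries, number 7 is the closest to the WT mean in 7 of the 12 (Adamts14, Adamts15, Adamts6, Adamts9, Mmp14, Mmp23 and Timp2) and the farthest in 3 (Adam5, Mmp15 and Mmp17).

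The ADAMTS-like proteins have no protease domain and bind to microfibrils. Adamtsl4, the highest, was at 97.7 ± 13.7 CPM in WT against 94.6 ± 18.2 CPM in knockouts (SD, n = 3 each). Adamtsl1 ranged widely within WT, at 3.40, 7.43 and 42.1 CPM in WT10, WT11 and WT12, and was at 0.976 to 4.55 CPM in HRP2-KO. The 23 untested members had at most 25 counts in a library (Mmp1b in WT10), and 4 of them, Adam34l, Adam39, Adam7 and Mmp21, had none in any, so that levels under 0.139 to 0.160 CPM, depending on the library (3 counts, counting error only), could not be seen.

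Among 35 tested regulators of these enzymes (of 41 listed), 0 passed over all genes, and at an unadjusted p below 0.05 there were 5 higher (14.3%, against 12.7% of all genes) and 4 lower (11.4%, against 9.10%), with a median log2 fold change of 0.16. Reck, a membrane-anchored inhibitor of MMPs, was at 62.1, 131 and 85.4 CPM in WT10, WT11 and WT12, against 24.1, 54.1 and 11.7 CPM in KO6, KO7 and KO44 (log2 fold change -1.63, edgeR adjusted p = 0.194). Bsg, or EMMPRIN, an inducer of MMPs, was at 550 to 604 CPM across WT and 948 to 1244 CPM across HRP2-KO (log2 fold change 0.94, edgeR adjusted p = 0.11). The other higher regulators were Pcsk7, Plaur, Sdc1 and Sparc, and the other lower regulators were Pcsk5, Tspan33 and Cd151. Cd151 had the smallest p of all tested regulators (log2 fold change -0.96, edgeR adjusted p = 0.108). Of 28 tested substrates (of 30 listed) 0 passed, and 2 were higher (7.14%, against 12.7% of all genes) and 4 lower (14.3%, against 9.10%) at an unadjusted p below 0.05, with a median of 0.21. The lower ones were the shed ligands Tgfa, Tnf, Csf1 and Kitl. Tgfa, which ADAM17 releases, was at 15.8, 16.4 and 10.7 CPM in WT10, WT11 and WT12, against 2.68, 1.93 and 2.38 CPM in KO6, KO7 and KO44 (log2 fold change -2.61, edgeR adjusted p = 0.0711). Among the tested substrates Dcn, Comp, Col3a1, Sdc4 and Ereg had the layout of Mmp3, with KO6 and KO44 below the WT range and KO7 above it (4.92% of all genes). Dcn was at 37.6 to 109 CPM in WT and at 2.0, 626 and 2.13 CPM, and Comp at 38.4 to 601 CPM in WT and at 4.49, 1048 and 1.88 CPM, in KO6, KO7 and KO44.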

How the data were processed

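Per the submitters' processing notes, reads were mapped with BWA to GRCm38.p6; how reads were assigned to genes, with which annotation and strand setting, the sources used here do not give. Genes that overlap another on either strand, and close paralogs (Mmp3 and Mmp10, Mmp1a and Mmp1b), are therefore uncertain. The authors deposited estimated counts without normalization, TPM scaled to length and a common total, and FPKM scaled to length and depth, per the file headers. The 30 other columns, 6 of normalized counts and 24 of averages, were not used.

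Counts were rounded, filtered with filterByExpr (minimum count 10, minimum total 15), scaled with TMM factors and compared by genotype with edgeR 4.0.16 (R 4.3.3, glmQLFTest, two-sided, Benjamini-Hochberg over all 13696 genes, threshold 0.05). The standard error is the log2 fold change divided by the square root of F. Groups were taken from the sample titles. Transcript length came from counts over FPKM. The fit was checked on simulated counts. Full values are given for the 4 Timp genes, up to 10 members per direction with the smallest p among those whose groups do not overlap and whose higher group has at least 1 CPM, the 6 members highest in TPM, and the tested members on chromosome 9; other names illustrate their role group. The members, lists and rules were chosen with earlier results of these data known. Positions and promoters are RefSeq's for GRCm38.p6, and exon overlap is from GENCODE on GRCm38. As alternatives, RLE or upper-quartile scaling replaced TMM, the filter was dropped or set to 1 CPM in 3 libraries, and other tools were run: DESeq2 1.42.0 and limma 3.58.1 (voom, and log2(TPM + 1) or log2(TPM + 0.1) where 3 libraries reached 1 TPM). Each replicate was left out in turn. Added after seeing the data were TPM or other scalings for the overlap counts and an offset that removes each library's trend with length. Figures used matplotlib 3.10.9.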

Additional observations from a re-analysis of the deposited data

How the results depend on the processing

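No paired analysis was possible because the replicate numbers of the 2 genotypes are not shared. The count of all genes called was 1, and it was 1579 in DESeq2, 37 in limma voom, 42 on log2(TPM + 1), 27 on log2(TPM + 0.1) and 0 to 3370 with 1 replicate left out, the highest without HRP2-KO replicate 7 and the lowest without HRP2-KO replicate 44. The count of members called was 0, and it was 8 in DESeq2, which gave no adjusted p for Mmp3 and Adam8, and 0 to 18 with 1 replicate left out, with 18 only without HRP2-KO replicate 7. Members at an unadjusted p below 0.05 numbered 7 in each direction. The lower ones were 4 under the filter of 1 CPM and 4 to 16 with 1 replicate left out, and the higher ones 5 to 9. Members with groups that do not overlap numbered 4 higher and 12 lower in TPM, and 8 to 11 higher and 5 to 18 lower with 1 replicate left out, where 18 is without HRP2-KO replicate 7. The median of the members stayed between -0.13 and -0.02 with 1 replicate left out. The log2 fold change of Mmp3 turned to -1.98 in limma voom, -1.73 on log2(TPM + 1) and -2.11 on log2(TPM + 0.1), and ranged from -4.52 to 2.53 with 1 replicate left out. That of Mmp13 ranged from -1.10 to 0.45 and that of Mmp10 from -0.89 to 0.86. The cause was not tested. The rest of the 24 members chosen by the rule for full values kept their direction under every alternative run on them, the length offset included. Among the remaining tested members, small fold changes did change sign: Adam17 (-0.04) was 0.22 without HRP2-KO replicate 44, and Mmp9 (-0.23) was 0.29 without HRP2-KO replicate 6. At these depths a member with fewer than 3 counts in a library cannot be told from one with none.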

Other observations

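A few related proteases fall outside the symbol rule and were looked at after their values were seen. Bmp1, a procollagen C-proteinase of the related astacin family, was higher in every HRP2-KO library than in every WT library (edgeR log2 fold change 0.89, adjusted p = 0.187). Its relative Tll1 was at 28.0, 20.4 and 22.7 CPM in WT10, WT11 and WT12, against 17.6, 6.10 and 9.62 CPM in KO6, KO7 and KO44 (edgeR log2 fold change -1.09, adjusted p = 0.20). Adamdec1, an ADAM-like gene of macrophages, did not exceed 1.43 CPM in any library.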
